A study of Rattus norvegicus with 14 samples.

Results

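*Gldn*, *Lgi4*, *Sema3b* and *Sostdc1* are 4 rat genes whose products Schwann cells release. They hold 29 of the 4993 transcription start sites (TSSs) in a table of TSSs that are expressed in sciatic nerve. Each of these TSSs lies near an H3K4me3 ChIP-Seq peak of that nerve, and a SOX10 ChIP-Seq peak overlaps the H3K4me3 peak. All rows that carry 1 of the 4 gene symbols were taken: 4 of *Gldn*, 12 of *Lgi4*, 7 of *Sema3b* and 6 of *Sostdc1*. Of the 2993 genes in the table, 2304 had 1 row and 156 had at least 4. The genes were chosen with their responses to cAMP and to loss of SOX10 known, so for those contrasts their values are a description, and no p-value is given for them. A TSS used in culture but not in nerve would have no row, and a share below is a share of the rows of that gene.

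TSSs were measured by Tn5Prime, which marks the 5′ end of a transcript by template switching, in 14 libraries. Of these, 2 came from wild-type sciatic nerves of independent adult rats aged 6 to 9 months, and 2 from separate RNA samples of 1 line, the wild-type parental S16 cells, an immortalized rat Schwann cell line. The 4 ΔSOX10 libraries came from clones of S16 cells, labelled 1-1, 1-2, 2-1 and 2-2, in which CRISPR-Cas9 guides had been directed at the first coding exon of *Sox10*. Primary rat Schwann cells, wild type and bought as cultures, gave 3 libraries after vehicle (control) and 3 after CPT-cAMP, a cell-permeable cAMP analogue, given at 250 µM daily for 3 days in 5% serum. Both primary cell groups were in 5% serum and both S16 groups in 10%. The instrument was a NovaSeq for primary cells and a HiSeq for the rest. Differences between those models, their serum and the instruments cannot be told apart, so they were left untested.

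Gliomedin, the product of *Gldn*, is released into the matrix around Schwann cell microvilli and binds axonal neurofascin and NrCAM, which helps to gather sodium channels at nodes of Ranvier. LGI4 is secreted by Schwann cells and acts through the receptor ADAM22 in sorting and myelinating axons. SEMA3B is a class 3 semaphorin, a secreted guidance cue read by neuropilin and plexin receptors, and SOSTDC1 is a secreted antagonist of BMP ligands that also modulates Wnt signalling. SOX10 is the transcription factor that maintains Schwann cell identity, and rising cAMP is used in culture to start Schwann cell differentiation.

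The start sites are numbered here from 5′ to 3′ along each gene, and the one with the highest mean level in nerve is called the main TSS. On the rn5 assembly the main TSSs were *Gldn* TSS 3 at chr8:57446724-57446727 (plus strand), *Lgi4* TSS 4 at chr1:90646928-90646942 (plus strand), *Sema3b* TSS 7 at chr8:115717001-115717025 (minus strand) and *Sostdc1* TSS 2 at chr6:65423672-65423743 (plus strand). No rn5 annotation of exons and introns was used here. Every one of the 29 rows overlapped its listed H3K4me3 peak, with 1 peak listed per gene. The rows of each gene were also listed with 1 SOX10 peak, and other SOX10 peaks nearby were not searched for. Of the 29 rows, 6 overlapped their listed SOX10 peak, against 51.7% of the 4993 candidate rows. These 6 rows were *Gldn* TSSs 2 and 3, *Lgi4* TSSs 1 and 2, and *Sostdc1* TSSs 1 and 2. The main TSSs of *Gldn* and *Sostdc1* thus lay inside the peak, that of *Lgi4* began 129 bp from its edge, and that of *Sema3b* 402 bp.

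Of the 4 genes, *Gldn* has a sequence in the RefSeq promoter table used here. The main *Gldn* TSS lay within the SOX10 peak, whose edge TSS 2 overlapped. Where the annotated RefSeq start lies relative to these sites and the peak was not determined. The 250 bases before the annotated start read as follows on GRCr8, chr8:63575020-63575269, plus strand; these coordinates are of another assembly than those of the start sites.
Gldn promoter: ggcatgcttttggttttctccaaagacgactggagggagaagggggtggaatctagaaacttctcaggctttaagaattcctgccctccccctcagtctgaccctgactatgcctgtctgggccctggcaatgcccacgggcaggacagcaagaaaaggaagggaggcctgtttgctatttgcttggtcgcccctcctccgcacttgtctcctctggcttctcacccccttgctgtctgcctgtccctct
Short motifs were searched on both strands of the 300-base window that runs from 250 bases before to 50 after this start: the SOX monomer letters ACAAAG and ACAATG, the cAMP response element TGACGTCA, its short form TGACG, which the full element contains, and the TATA box letters TATAAA. None was found in the *Gldn* window. Among all 33469 promoters of that length, 18.8% held ACAAAG, 13.2% ACAATG, 1.83% TGACGTCA, 21.2% TGACG and 14.2% TATAAA. The absence says only that these letters are not in this window.

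Libraries held 29895599 to 79940275 reads, of which 28.7% to 37.0% fell in candidate TSSs, and 1 read was worth 0.0125 to 0.0334 RPM (a TSS's reads scaled by the library total). No molecular identifiers were named in the sources, so lower bounds below cover counting error only. The *Sox10* TSS read 90.7 and 77.5 RPM in the parental libraries and 0.0255, 0.0254, 0 and 0.114 RPM in the clones. The summed main TSSs of 10 Schwann cell markers were 59020 to 60688 RPM in nerve, 5375 to 5526 in control, 6585 to 7365 in cAMP, 3627 to 3812 in parental cells and 11.3 to 22.7 in the clones. Of 7 fibroblast markers 2 had a row, *Col1a1* and *Pdgfra*. Their sum, nearly all of it *Col1a1*, was 98.7 to 114 RPM in nerve, 789.6 to 892 in control and 366 to 459 in cAMP. It was 2201 to 2771 RPM in parental cells and 2910 to 5171 in the clones. *Pdgfra* went the other way. It was highest in the nerve libraries, at up to 3.71 RPM, against 1.29 RPM or less in any other library and 0 in control. The sum is thus a reading of *Col1a1* alone. Of 6 macrophage markers only *Csf1r* had a row, at 4.82 RPM or less everywhere. *Itgb4*, listed as a perineurial marker (1 of 3 with a row), was 47.2 to 50.7 RPM in nerve. It was 3.53 to 5.09 RPM in cAMP-treated Schwann cells and 2.87 or less elsewhere, so it is not read as a measure of perineurial cells. The mural marker *Pdgfrb* (1 of 5) was 27.1 to 51.2 in nerve, 0.330 to 1.91 in control, 22.4 to 26.9 in cAMP, 3.14 to 5.52 in parental cells and 2.82 to 19.3 in the clones. None of 6 endothelial and 3 adipocyte markers had a row. Because these are bulk RNA samples, fewer cells of a type and less RNA per cell cannot be told apart, and the part of other cells in the levels below was not tested.

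Summed over its 4 rows, *Gldn* was highest in cAMP-treated cells, at 187.5, 190.4 and 202 RPM. Parental S16 cells followed with 106 and 76.0 RPM, control cells with 69.5, 61.4 and 70.1 RPM, and nerve with 50.0 and 55.1 RPM. The clones read 22.0, 1.89, 23.4 and 26.0 RPM. No neighbouring groups in this order overlapped, although parental library 2 and control library 3 were only a few RPM apart.

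In the cultured cells 71.9% to 98.3% of the *Gldn* signal came from the main TSS, a sharp site 4 bp wide. It read 36.6 and 31.3 RPM in nerve, 65.8, 60.4 and 62.2 in control, 171, 171 and 182 in cAMP, 81.1 and 54.6 in parental cells, and 19.3, 1.53, 22.9 and 19.8 in the clones. Control and parental ranges overlapped, and all other neighbours in the order did not. The mean was 2.78-fold higher with cAMP (log2 fold change of RPM + 1 1.46 ± 0.13 SE, 3 against 3 libraries) and 4.28-fold lower in the clones than in parental cells (-2.42 ± 0.83 SE, 4 against 2). Clone 1-2 weighed on the second value: without it the log2 fold change was -1.65.

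*Gldn* TSS 2, a 42 bp wide site that lies 135 bp upstream of the main TSS, read 7.83 and 16.6 RPM in nerve and 3.73, 1.05 and 6.88 in control. It read 16.2, 16.7 and 18.9 in cAMP, 19.8 and 18.6 in parental cells, and 1.27, 0.356, 0.465 and 4.70 in the clones. It was 4.44-fold higher with cAMP (2.10 ± 0.47 SE) and 11.3-fold lower in the clones (-3.16 ± 0.60 SE), and neither pair of groups overlapped. Single libraries weighed on both folds, which were 7.22 without control library 3 and 27.5 without clone 2-2. Its share of *Gldn* was 15.7% and 30.1% in nerve and 18.7% and 24.5% in parental cells, against 1.72% to 9.81% in the 6 primary cell libraries. TSSs 1 and 4 reached at most 5.55 and 5.89 RPM in any library, each in nerve, and TSS 4 was listed at 0 in all primary cell libraries.

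**Figure D1:**
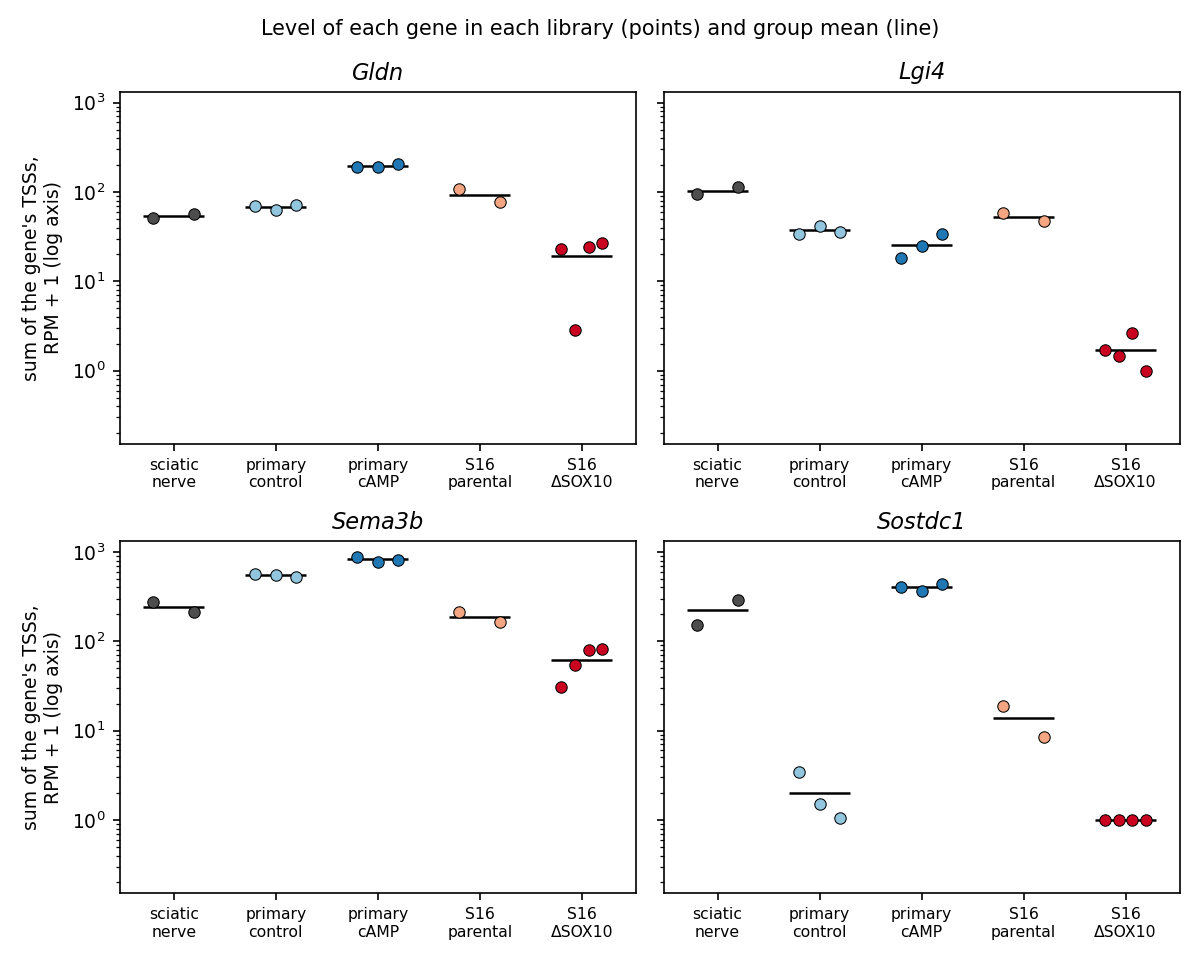
Sum of each gene's start sites as RPM + 1 (log axis) in each of the 14 libraries (points), with the mean of each group (line). On this log axis *Sostdc1* spans the widest range, from 0 RPM in all 4 ΔSOX10 clones to 368 to 434 RPM in cAMP-treated cells, while *Lgi4* is highest in nerve, at 94.0 and 111 RPM.

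*Lgi4*, in contrast, was highest in nerve. Its 12 rows summed to 94.0 and 111 RPM there, to 56.6 and 45.8 in parental cells, to 32.9, 40.5 and 34.9 in control and to 17.2, 23.9 and 32.6 in cAMP. The clones held 0.713, 0.458, 1.64 and 0 RPM. Each group lay apart from the next, but control library 1 and cAMP library 3 differed by less than 1 RPM. The sum was 1.47-fold lower with cAMP (-0.58 ± 0.26 SE) and 72.9-fold lower in the clones (-5.02 ± 0.48 SE), or 131-fold without clone 2-1.

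*Lgi4* start sites did not move together with cAMP. The main TSS read 31.0 and 33.8 RPM in nerve, 8.56, 10.6 and 8.81 in control, 2.00, 3.57 and 3.14 in cAMP, 15.5 and 14.2 in parental cells and 0, 0.0254, 0 and 0 in the clones. It was 3.21-fold lower with cAMP (-1.42 ± 0.46 SE), and the groups did not overlap. TSS 6, 71.5 bp downstream of it, went the other way: 2.01, 0.260 and 0.467 RPM in control against 7.26, 10.3 and 5.90 in cAMP, 8.56-fold higher (2.28 ± 0.55 SE), again without overlap. Control library 1 held most of the control signal, and without it the fold was 21.5. TSS 6 was 17.0 and 14.6 RPM in nerve, 5.43 and 7.75 in parental cells and 0 in every clone.

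As shares of *Lgi4*, the main TSS made up 26.0%, 26.1% and 25.2% in control and 11.6%, 14.9% and 9.64% in cAMP, while TSS 6 made up 6.11%, 0.641% and 1.34% in control and 42.2%, 43.1% and 18.1% in cAMP. Nerve had 32.9% and 30.3% from the main TSS and 18.0% and 13.1% from TSS 6. TSS 10, which lies 514 bp downstream of the main TSS, supplied 7.29% and 1.59% of *Lgi4* in nerve but 54.7%, 21.0% and 37.2% in control. It supplied 14.5%, 28.8% and 32.6% in cAMP and 36.3% and 14.3% in parental cells, so that control and cAMP overlapped.

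Within the SOX10 peak, *Lgi4* TSS 2 read 17.8 and 22.3 RPM in nerve, 2.00, 8.05 and 6.28 in control, 0, 1.89 and 4.44 in cAMP, 7.05 and 6.74 in parental cells, and 0.688, 0, 0 and 0 in the clones. It was 40.1-fold lower in the clones (-2.79 ± 0.40 SE), a fold that rests on clone 1-1 alone: without it the bound is at least 84.9-fold. Its control and cAMP ranges overlapped. The bound for the main TSS was at least 186-fold lower in the clones, and that for TSS 6 at least 82.3-fold, both against a floor of 3 reads averaged over the libraries of the group. Of the 12 rows, 8 were at 0 in all 4 clones, against 3 in both parental libraries. TSSs 7, 8, 11 and 12 were seen in nerve, at up to 6.51, 3.80, 5.39 and 4.35 RPM, and at no more than 0.233 RPM in any other library. TSSs 7 and 8 rest on nerve library 2, since nerve library 1 read 0 and 0.0334 RPM, the latter 1 read.

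**Figure D2:**
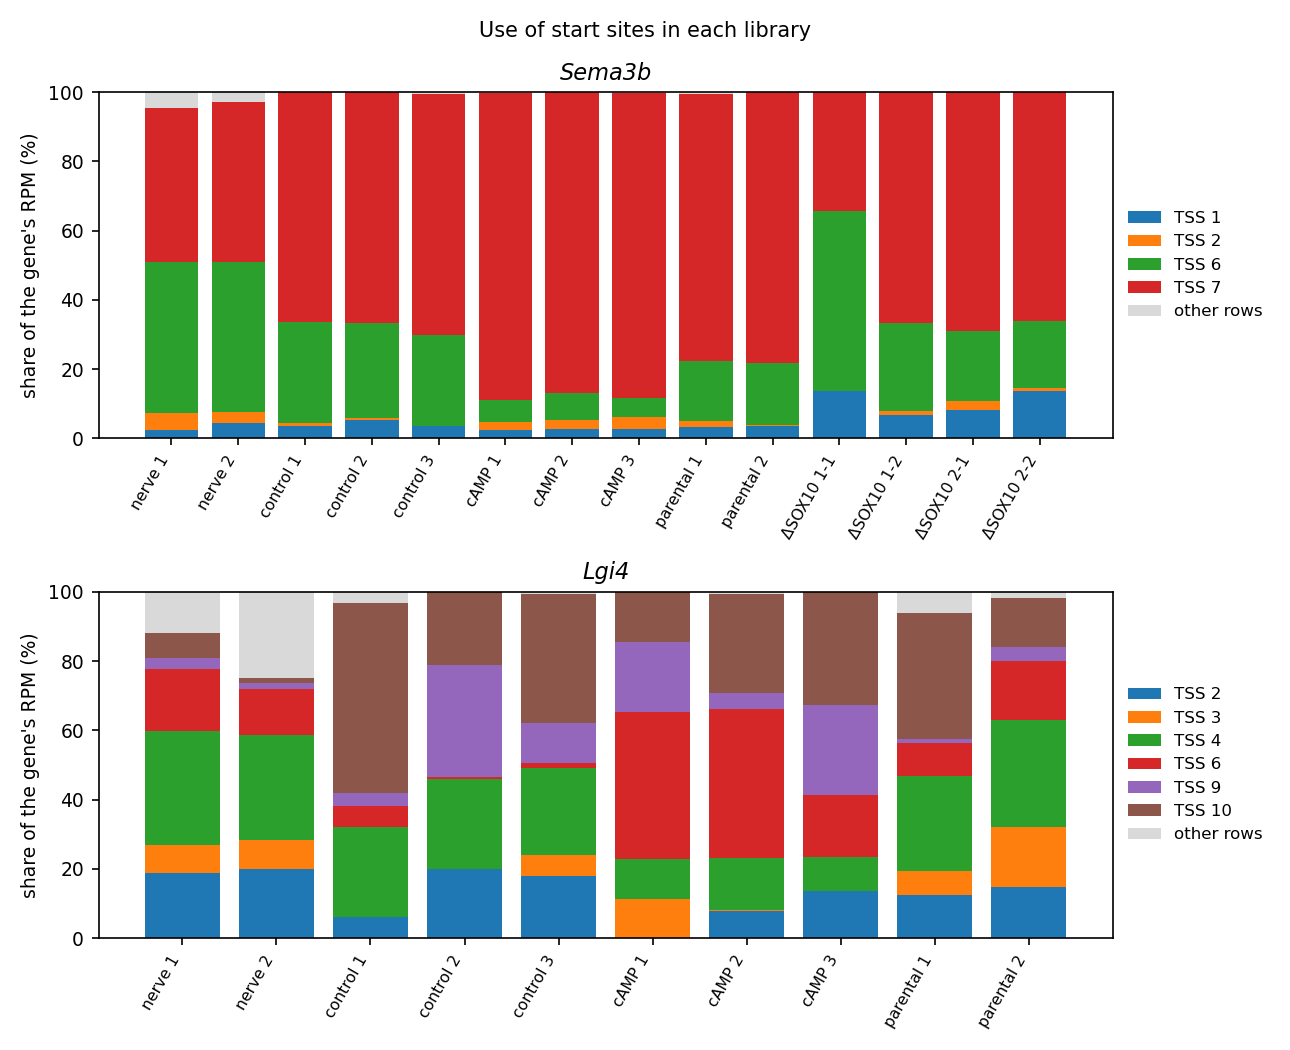
Share (%) of each gene's summed RPM that came from each start site, for *Sema3b* in 14 libraries and for *Lgi4* in the 10 libraries other than the ΔSOX10 clones, where *Lgi4* was at 1.64 RPM or less. *Sema3b* TSS 7 takes 44.6% and 46.0% in nerve and 86.8% to 88.4% in cAMP, and *Lgi4* TSS 6 takes up to 43.1% in cAMP.

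*Sema3b* was summed to 870.1, 779 and 818 RPM in cAMP-treated cells and to 559, 555 and 519 in control. Nerve held 276 and 209 RPM and parental cells 209.8 and 163, which overlapped, and the clones held 29.4, 52.8, 78.0 and 81.1. The sum was 1.51-fold higher with cAMP (0.59 ± 0.07 SE) and 3.09-fold lower in the clones (-1.71 ± 0.36 SE).

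Behind this sum, the pair of leading *Sema3b* start sites, whose middles lie 149 bp apart, went in opposite directions with cAMP. The main TSS, TSS 7, read 123 and 96.3 RPM in nerve, 371, 370.3 and 361 in control, 769, 676 and 722 in cAMP, 162 and 128 in parental cells, and 10.1, 35.3, 53.9 and 53.6 in the clones. TSS 6 read 119.8 and 90.9 RPM in nerve, 163, 153 and 137 in control, 55.7, 62.8 and 44.4 in cAMP, 36.3 and 28.9 in parental cells, and 15.2, 13.3, 15.8 and 15.8 in the clones. TSS 7 was 1.96-fold higher with cAMP (0.97 ± 0.08 SE) and TSS 6 was 2.78-fold lower (-1.47 ± 0.16 SE), and in neither did control and cAMP overlap.

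The ratio of TSS 7 to TSS 6 within a library does not depend on its depth. It was 1.03 and 1.06 in nerve, 2.28, 2.42 and 2.65 in control, and 13.8, 10.8 and 16.3 in cAMP. In parental cells it was 4.46 and 4.43, and in the clones 0.664, 2.65, 3.42 and 3.40. No 2 neighbouring groups overlapped from nerve through control and parental cells to cAMP, while the clones ran from below the nerve values to above the control values. Both sites were lower in all 4 clones than in the parental cells: TSS 7 by 3.79-fold (-2.13 ± 0.59 SE) and TSS 6 by 2.17-fold (-1.06 ± 0.26 SE).

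*Sema3b* TSS 2, which lies 1536.5 bp upstream of the main TSS, read 3.83, 2.92 and 0 RPM in control and 21.3, 19.2 and 28.4 in cAMP, 10.2-fold higher (3.15 ± 0.53 SE), or 15.7-fold without control library 1. It was 13.5 and 6.51 RPM in nerve, 3.55 and 0.467 in parental cells, and 0, 0.686, 1.97 and 0.713 in the clones, where the S16 groups overlapped. The farthest site, TSS 1, lies 4045.5 bp upstream and overlapped between groups in both comparisons. It read 20.6, 29.0 and 19.1 RPM in control against 20.6, 21.1 and 22.5 in cAMP, and 6.89 and 5.96 in parental cells against 4.05, 3.56, 6.45 and 11.0 in the clones (-0.14 ± 0.47 SE). Its share of *Sema3b* was 3.29% and 3.65% in parental cells and 13.8%, 6.73%, 8.26% and 13.6% in the clones. TSSs 3 to 5 reached at most 5.35 RPM, in nerve.

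On the log scale, *Sostdc1* had the widest range of levels of the 4 genes. Its main TSS, a 72 bp wide site inside the SOX10 peak, read 134 and 251 RPM in nerve, 2.45, 0.489 and 0.0583 in control, 393, 361 and 429 in cAMP, 17.9 and 7.44 in parental cells, and 0 in each of the 4 clones. No neighbouring groups in this order overlapped. The mean was 395-fold higher with cAMP (7.81 ± 0.33 SE) and at least 158-fold lower in the clones than in parental cells, or at least 92.9-fold without parental library 1. Control library 1 held most of the control signal, and without it the mean was 1442-fold higher with cAMP (log2 fold change 8.30).

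The other 5 *Sostdc1* rows were all at 0 in control, parental and ΔSOX10 libraries. The whole gene read 2.45 RPM or less in control and 0 in the clones, so rows with a small share could hardly be seen there. In nerve, TSSs 1 and 5 were seen in library 2 only, at 5.24 and 3.91 RPM. TSSs 3 to 6 lie 3031 to 3710 bp downstream of the main TSS and still within the same H3K4me3 peak. The largest of them, TSS 6, read 11.9 and 19.5 RPM in nerve and 2.54, 3.55 and 1.39 in cAMP. It supplied 7.80% and 6.72% of *Sostdc1* in nerve and 0.633%, 0.963% and 0.321% in cAMP, and the main TSS 87.6% and 86.6% against 98.0%, 98.1% and 99.1%. With cAMP, TSS 6 was at least 47.7-fold higher than in control, by the same floor. Nerve and cAMP libraries came from different instruments, so their difference in shares was not tested.

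Over the 4 genes, 18 of the 29 rows passed the filter on low values in the cAMP comparison, and 7 were called higher and 2 lower by limma, where 12.9% and 11.0% of all 4119 TSSs tested were called. The rows called higher were *Gldn* TSSs 2 and 3, *Lgi4* TSS 6, *Sema3b* TSSs 2 and 7, and *Sostdc1* TSSs 2 and 6, and those called lower were *Lgi4* TSS 4 and *Sema3b* TSS 6. In the ΔSOX10 comparison 13 rows passed, of which 8 were called lower and 0 higher, where 6.55% and 1.65% of 3875 TSSs were called. The rows called lower were *Lgi4* TSSs 2, 3, 4, 6 and 10, *Gldn* TSS 2, *Sema3b* TSS 6 and *Sostdc1* TSS 2, and the log2 fold changes of all 13 were below 0. Since the genes were chosen on these contrasts, and a row that passed through 1 group alone had to differ, nothing is read from these counts. They also moved with single libraries. The 8 became 1 without parental library 1 and 3 without parental library 2, and in each case 5 of the 8 were no longer tested, since they then missed the filter. With cAMP, the 2 became 1 without any 1 of the control libraries or cAMP library 1. The groups did not overlap in 8 higher and 2 lower rows with cAMP (19.2% and 17.4% of all TSSs tested) and in 11 lower and 0 higher rows in the clones (21.7% and 7.69%).

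**Figure D3:**
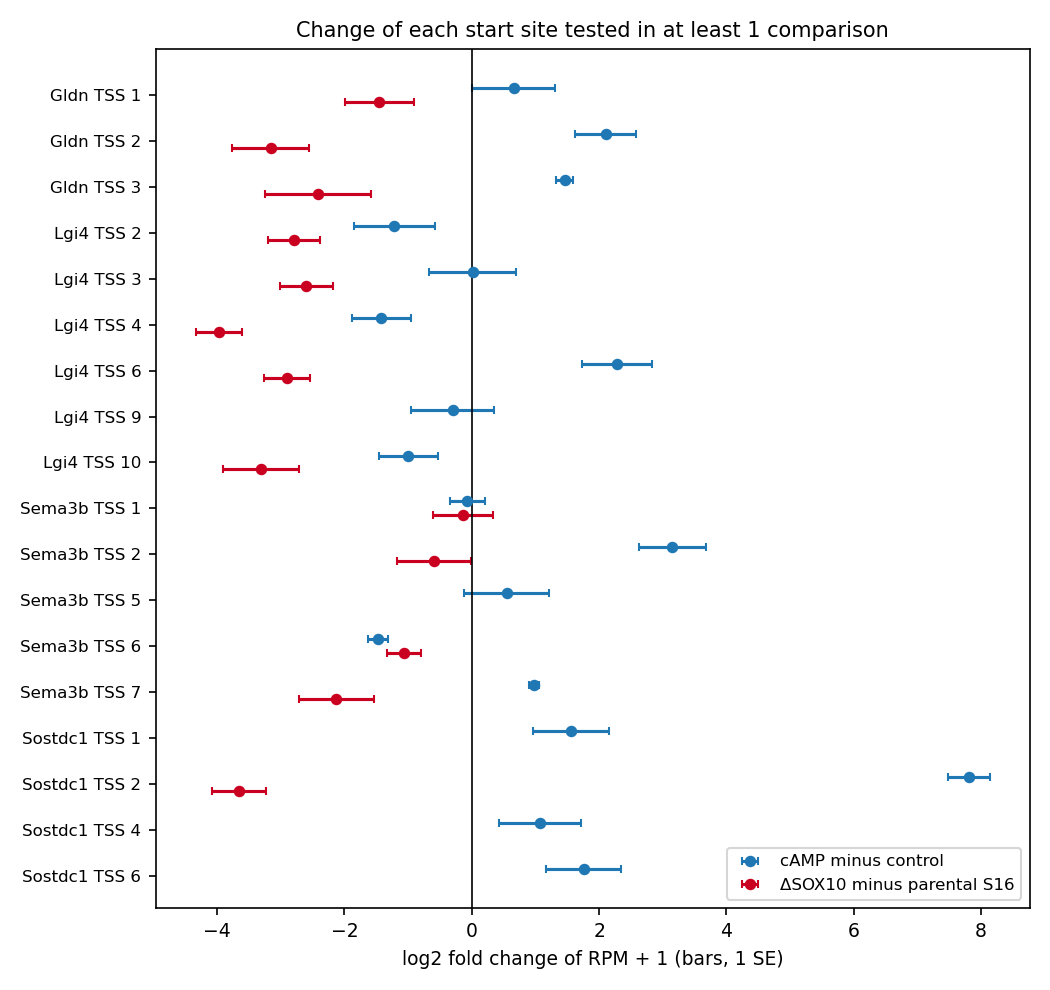
Log2 fold change of RPM + 1 (bars, 1 SE) of each start site that passed the filter in at least 1 comparison, for cAMP minus control (blue) and ΔSOX10 minus parental S16 (red). All 13 red points lie below 0, while the 18 blue points lie on both sides, with *Sema3b* TSS 6 at -1.47 and TSS 7 at 0.97.

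Differences among the ΔSOX10 clones had no part in the choice of the genes and could be tested. Clones labelled 2-x were compared with those labelled 1-x by limma over the 6 S16 libraries. None of 3875 TSSs was called (0.00%), while 245 had an unadjusted p under 0.05. On recovered reads, edgeR's quasi-likelihood test called 0 and DESeq2 28 TSSs, and neither called any of the 13 rows of the 4 genes. Of the 13, *Lgi4* TSS 6 and *Sostdc1* TSS 2 were at 0 in all clones and *Lgi4* TSS 4 held 1 read, so for these 3 no difference between clones could have been called. An unadjusted p under 0.05 was given to 1 of the 13 rows by limma, 3 by edgeR (270 of all TSSs) and 4 by DESeq2 (342 of all TSSs). *Sema3b* TSS 7, which was among them with each tool, read 53.9 and 53.6 RPM in clones 2-x against 10.1 and 35.3 in clones 1-x (log2 difference 1.45 ± 0.49 SE, limma unadjusted p = 0.0192, adjusted p = 0.761). *Gldn* TSS 3 differed by 1.64 ± 0.83 SE (limma adjusted p = 0.814), with clone 1-1 at the level of clones 2-x and clone 1-2 far below. Of the values above 0 in both parental libraries and in clones 1-x, 8.59% to 9.35% had been rounded to 3 digits and none in clones 2-x; the part of this in the comparison was not tested. With 2 clones a side, the intervals were wide, and a p that misses the threshold does not show that the clones were alike.

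Genes of the pathways around these signals, and other secreted Schwann cell signals, were read from 5 gene lists, each gene by its main TSS. None of the listed genes for neurofascin, NrCAM, ADAM22, neuropilins, plexins, BMP ligands or BMP receptors had a row. The levels of these partners could thus not be read here. In all, 25 of 160 listed genes had a row and 20 were tested in each comparison. With cAMP, 8 rose and 4 fell, against 13.5% and 13.9% of the main TSSs of all 2832 genes tested, whose median log2 fold change was -0.03. In the clones, 1 rose and 4 fell, against 1.99% and 5.50% of 2763 genes, with a median of -0.17. The lists were chosen with earlier results of these data known. Nothing is therefore read from these counts, and the p-values of list genes below are given as descriptions. The median over all TSSs in the clones was -0.18 in RPM and -0.05 after scaling by median ratios.

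Among 22 genes of nodal and paranodal adhesion, 7 had a row and 5 were tested. With cAMP 2 rose and 1 fell (median 0.78), and in the clones 2 fell (median -0.83). *Mag*, the myelin-associated glycoprotein of the membrane next to the axon, rose with cAMP from 0.00509 ± 0.00882 to 30.6 ± 7.49 RPM (SD, n = 3 each; log2 fold change 4.95 ± 0.48 SE, limma adjusted p = 4.65e-08). In the clones *Mag* fell from 34.6 ± 1.41 (n = 2) to 0.00635 ± 0.0127 RPM (n = 4; -5.14 ± 0.37 SE, limma adjusted p = 4.71e-05). *Cadm1*, an adhesion molecule of the nectin-like family, fell with cAMP from 693 ± 41.2 to 93.3 ± 8.19 RPM (-2.88 ± 0.10 SE, limma adjusted p = 2.1e-15). *Slc9a3r1*, a scaffold protein, also rose with cAMP, and *Ank3*, which encodes ankyrin-G, also fell in the clones. The *Ank3* call (1.45 and 2.38 RPM in parental cells, limma adjusted p = 0.0301) was lost with edgeR, with a pseudocount of 5 and without any 1 of the clones, and *Ank3* was not tested without either parental library.

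Of the LGI proteins and ADAM receptors or proteases beside *Lgi4*, 3 of 12 had a row, all of them ADAM genes. With cAMP, 2 of 3 tested fell (median -1.42) and none rose. *Adam9*, a membrane protease, went from 16.6 ± 1.02 to 3.03 ± 0.327 RPM (-2.13 ± 0.41 SE, limma adjusted p = 0.000456), and *Adam19* fell as well, a call lost without control library 3. In the clones 0 of 2 tested were called by limma (median 0.54), and neither had an unadjusted p under 0.05. On recovered reads, edgeR and DESeq2 called 0 of them too.

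Of 36 other genes of the semaphorin pathway, 4 had a row and all 4 were tested. *Mical1*, an actin-oxidizing effector of plexins, rose with cAMP from 24.7 ± 3.07 to 55.0 ± 9.95 RPM (1.12 ± 0.22 SE, limma adjusted p = 0.000607). *Sema4c*, a membrane-bound semaphorin, fell from 44.4 ± 10.8 to 10.9 ± 3.39 RPM (-1.95 ± 0.30 SE, limma adjusted p = 3.52e-05). The median was -0.15 with cAMP and -0.62 in the clones. There limma called 0, although 2 had an unadjusted p under 0.05, and on recovered reads edgeR called 0 and DESeq2 1.

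BMP and Wnt signalling had 8 of 60 genes with a row, 5 of them tested with cAMP and 6 in the clones. *Id2*, a transcriptional regulator that BMP signalling induces in many cells, rose with cAMP from 62.1 ± 5.45 to 571 ± 43.5 RPM (3.18 ± 0.11 SE, limma adjusted p = 2.1e-15), and *Id4* rose too, while *Id3* had a log2 fold change of -0.07 ± 0.06 SE. In the clones *Id2* rose from 24.2 ± 3.04 to 65.7 ± 19.8 RPM (1.36 ± 0.31 SE, limma adjusted p = 0.0308). That call was lost without clone 1-1, 1-2 or 2-2 or without either parental library. The medians were -0.07 with cAMP and 0.25 in the clones.

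Of 30 other secreted Schwann cell signals 3 had a row, and all 3 rose with cAMP by limma (median 1.76) and 2 by edgeR and DESeq2, while 2 fell in the clones (median -2.70, or -4.67 with *Metrn*, which was at 0 in all clones, set at its floor bound). *Dhh*, desert hedgehog, which Schwann cells send to the cells of the perineurium, rose from 12.0 ± 1.35 to 91.2 ± 5.10 RPM with cAMP (2.83 ± 0.22 SE, limma adjusted p = 1.27e-09). In the clones it fell from 30.1 ± 1.13 to 0.294 ± 0.571 RPM (-4.67 ± 0.46 SE, limma adjusted p = 0.000267). *Metrn* and *Metrnl*, which encode the secreted proteins meteorin and meteorin-like, rose with cAMP, and *Metrn* fell in the clones. The cAMP call of *Metrn* (limma adjusted p = 0.0330) was lost with edgeR, with DESeq2, with no filter, with a pseudocount of 0.1 and without control library 2 or any 1 of the cAMP libraries. The call of *Dhh* in the clones was lost with DESeq2. Over the 5 lists, leaving out either parental library reduced the 4 genes that fell in the clones to 1, since *Mag*, *Metrn* and *Ank3* then missed the filter and were not tested.

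Likeness of pattern was measured as Pearson's r of log2(RPM + 1) between main TSSs over the 14 libraries, among 2567 genes. These r values are descriptions over libraries of 5 groups that share libraries and instruments. *Sostdc1* was most like *Plekha4* (r = 0.975), *Tgfbr3* (0.967) and *Dusp15* (0.961), and *Sema3b* most like *Atp6v1d* (0.963), *Rnf5* (0.960) and *Rnf7* (0.954). Among the genes most like *Lgi4* were *Mrpl48* (0.848) and *Cmtm5* (0.846), and *Gldn* was most like *Cyp27a1* (0.926), *Sirt2* (0.914) and *Zmynd8* (0.910). Between the 4 genes themselves, r ran from 0.407 (*Gldn* and *Lgi4*) to 0.817 (*Gldn* and *Sema3b*). *Plekha4*, for instance, read 212 and 249 RPM in nerve, 4.32 to 6.94 in control, 457 to 575 in cAMP, 52.4 and 61.7 in parental cells and 0.547 to 3.39 in the clones, an order close to that of *Sostdc1*. A high r does not mean a change of like size. *Mrpl48* still read 53.4 to 66.5 RPM in the clones, where the main *Lgi4* TSS read 0 to 0.0254. *Atp6v1d* ran from 83.5 to 255 RPM over the 14 libraries, against 10.1 to 769 for *Sema3b* TSS 7.

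**Figure D4:**
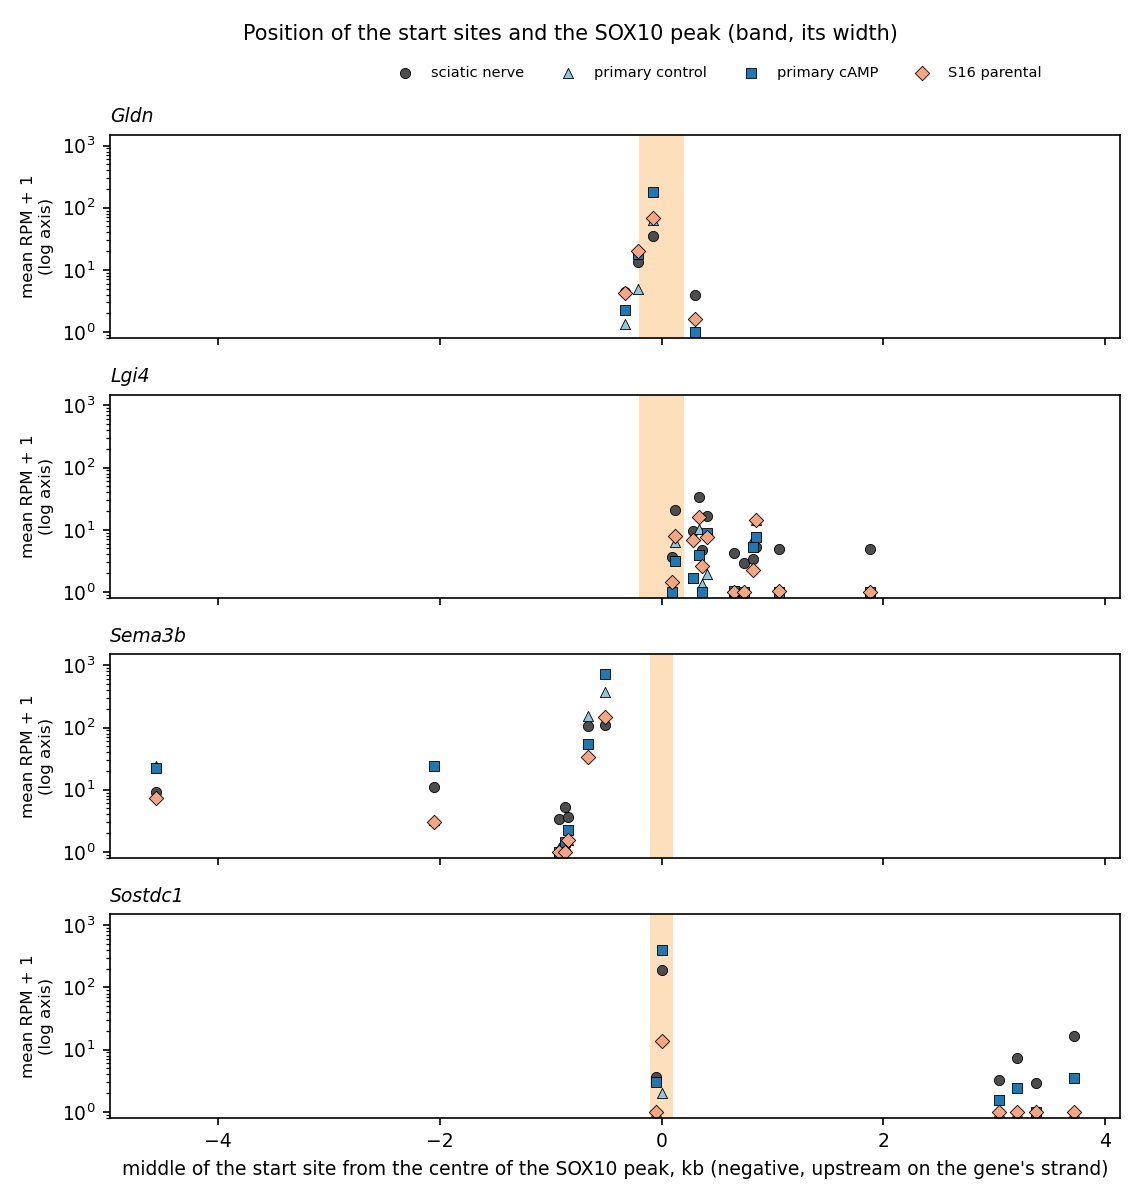
Mean RPM + 1 (log axis) of each of the 29 start sites in nerve, control, cAMP and parental S16 libraries against the distance in kb of its middle from the centre of the gene's SOX10 peak, with the peak's width as a band (400 bp for *Gldn* and *Lgi4*, 200 bp for *Sema3b* and *Sostdc1*). The main *Gldn* and *Sostdc1* sites lie in the band, whereas every *Sema3b* site lies upstream of it.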

How the data were processed

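Tn5Prime libraries were made by the authors from 14 RNA samples. Per the labels and the methods of the study, the authors trimmed reads with cutadapt 1.14, mapped them to rn5 with STAR 2.5.2a, converted them with SAMtools 1.9, clustered 5′ ends into TSSs and counted them with featureCounts of Subread 1.6.1. The deposited values are RPM per TSS and library. The TSSs lie within 1 kb of an H3K4me3 ChIP-Seq peak, and a SOX10 ChIP-Seq peak overlaps that peak. A TSS can itself lie farther from the SOX10 peak, up to 4426 bp among the 29 rows. The 4 deposited columns of log2 fold changes and of FDR values (p-values adjusted by the authors with edgeR 3.24.3) were not used. RPM values gave whole reads in 100% of unrounded values within a tolerance of 0.02.

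RPM values are not counts, so limma 3.58.1 (R 4.3.3; eBayes with an intensity trend) was run on log2 of RPM plus a pseudocount of 1. A TSS entered where 2 or more libraries of a comparison exceeded 1 RPM, with Benjamini-Hochberg adjustment over all TSSs tested and a threshold of 0.05. The comparisons were cAMP against control, ΔSOX10 against parental S16 cells, and clones 2-x against 1-x. Fold changes understate those of low TSSs, and a fold against a group at or under 3 reads per library is a lower bound against the group's mean floor. P-values set a difference against the spread between these samples. In S16 cells that spread joins separate RNA samples of 1 parental line with ΔSOX10 clones. The spread between clones of unedited cells was not measured. All member rows were described, with the 3 genes most like each main TSS (at least 10 RPM in 1 library; 1 of these genes is not reported here) and, from each gene list, the called gene with the largest change per comparison and direction. Other called list genes and *Id3* were named after their values were seen. The members and lists were chosen with earlier results of these data known. Alternatives were DESeq2 1.42.0 and edgeR 4.0.16, both on the recovered reads, other pseudocounts, filters and scalings, a replicate block and each library left out. Scripts were tested on simulated data. Sequences came from RefSeq (GRCr8), where 1 of 4 genes matched.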

Additional observations from a re-analysis of the deposited data

Results flagged for a closer look

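In the 4 ΔSOX10 clones, 7 of 15 series with a value above 0 had 1 clone farther from the rest than Dixon's critical value at the 95% level allows. In 5 of the 7 the other 3 clones were at or near 0, where almost any value passes that limit, so the usual chance rate of about 1 group in 20 does not apply to them and nothing is read from the count. The other 2 were *Gldn* values that share the same row. Clone 1-2 stood low at *Gldn*: TSS 3 read 1.53 RPM there against 19.3 to 22.9 in the other clones, and the sum of *Gldn* 1.89 RPM against 22.0 to 26.0. The candidate TSSs took 28.7% of the reads of that clone and 33.4% to 35.1% in the other 3, and the part of this in the *Gldn* value was not tested. The 5 single clones above 3 clones at or near 0 were *Gldn* TSS 4 at 0.790 RPM and *Lgi4* TSS 2 at 0.688 RPM in clone 1-1, *Lgi4* TSS 3 at 0.432 RPM and TSS 4 at 0.0254 RPM, which is 1 read, in clone 1-2, and *Lgi4* TSS 10 at 1.64 RPM in clone 2-1, against 0.0255 RPM or less in the others.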

How the results depend on the processing

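Main TSSs and sums of the 4 genes kept the direction of their log2 fold changes with cAMP and in the ΔSOX10 clones in all 223 values under the alternatives run, and 197 of them stayed within 1 SD. Values that moved were mainly those of groups near 0: the *Sostdc1* sum with cAMP went from 7.83 to 9.34 with a pseudocount of 0.1 and 6.10 with 5. With cAMP, leaving out 1 library gave 409 to 465 TSSs higher and 340 to 390 lower, and 6 to 7 rows of the 4 genes higher and 1 to 2 lower. In the clones it gave 28 to 55 higher and 71 to 265 lower, 1 to 8 rows of the 4 genes lower, and 0 to 1 list genes higher and 1 to 4 lower; the lowest counts came without a parental library, which left 1 sample assumed to vary like the clones and took 5 of the 8 rows below the filter. In the clones, DESeq2 called 111 TSSs higher, and a mean of at least 5 RPM left 166 TSSs, 2 rows of the 4 genes and 2 list genes lower, since fewer TSSs were tested. With edgeR's quasi-likelihood test 5 rows of the 4 genes were lower; the cause was not tested. Between clones 1-x and 2-x, DESeq2 called 28 TSSs and leaving out 1 library gave 0 to 1. Same-numbered control and cAMP libraries did not deviate together (r = 0.0294, 0.00751 and 0.0379), so the numbers were not taken as pairs; a replicate block gave 553 TSSs higher and 467 lower, with 7 and 2 rows of the 4 genes. Spearman's rho in place of Pearson's r left none of the 3 genes most like *Gldn* and 1 of 3 for the other genes. Low depth limits rows near 1 read.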
